A study of Homo sapiens with 6 samples.

Results

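The NRF2 antioxidant target genes were taken as 10 gene symbols: NFE2L2, KEAP1, NQO1, HMOX1, GCLC, GCLM, TXNRD1, SRXN1, SLC7A11 and SOD2. All 10 were found in the deposited table of 17100 transcripts, 1 transcript per symbol, and all 10 passed the filter on low counts that left 13322 genes for testing. The expression of these genes was measured by RNA sequencing in MDA-MB-231, an established human triple-negative breast cancer cell line. There were 3 libraries from vehicle-treated cells and 3 libraries from cells given 1 µM guadecitabine for 96 h, followed by 24 h without the drug. Guadecitabine (SGI-110) releases decitabine, an inhibitor of the DNA methyltransferases. All 6 libraries came from the same line, and their labels name no other treatment.

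NRF2, encoded by NFE2L2, is a transcription factor that pairs with small MAF proteins at antioxidant response elements. In unstressed cells KEAP1 binds NRF2 and hands it to a CUL3 ubiquitin ligase, so that NRF2 is degraded, and oxidants or electrophiles acting on cysteines of KEAP1 let the protein accumulate. NRF2 is therefore controlled mainly as a protein, and RNA counts of NFE2L2 and KEAP1 do not measure its activity. Its textbook targets make glutathione, reduce thioredoxin and peroxiredoxins, clear quinones and break down heme.

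Library totals were 17602570 to 22277442 counts for vehicle and 8792127 to 21410849 for guadecitabine, with guadecitabine replicate 2 the shallowest. The line expressed VIM, CD44, AXL and ZEB1, while ESR1 and PGR had at most 1 count in each library other than vehicle replicate 3. Of the other luminal markers examined, FOXA1 had at most 4 counts in those libraries. CDH1 had 6 to 87 counts over all libraries, EPCAM 90 to 466 and GATA3 321 to 766, so that not every luminal marker was near 0. GATA3 rose by a log2 fold change of 0.83 (edgeR adjusted p = 0.000512), while EPCAM and CDH1 fell (adjusted p = 0.00446 and 0.0313). Counts of CDH1 were 38, 25 and 87 in vehicle replicates 1, 2 and 3 and 20, 6 and 13 in guadecitabine replicates 1, 2 and 3. Vehicle replicate 3 stood apart, with 20 transcripts at 0 counts against 1593 to 2517 in the other 5 libraries. Its median over the 2014 genes with 0 counts in the other vehicle libraries was 7.65 counts per kb of exon. Among the NRF2 genes, the lowest level in that library was that of SLC7A11, at 43 counts per kb, followed by 130 for GCLC. Markers of other cell types were summed over 6 genes and lay at 3099 to 3718 normalized counts in vehicle and 9147 to 10020 after guadecitabine. Most of this sum was CD68, and COL1A1 was also higher after guadecitabine, while PTPRC, CDH5 and ALB had at most 4 counts in each library other than vehicle replicate 3. PECAM1 had 55, 50 and 100 counts in vehicle and 103, 39 and 104 after guadecitabine, with a log2 fold change of 0.55 that did not pass the test (edgeR adjusted p = 0.132), although its normalized counts did not overlap. The part of these differences in the results was not tested.

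Of the 10 NRF2 genes, 6 rose after guadecitabine, 0 fell and 4 did not pass the test. SOD2, the superoxide dismutase of the mitochondrial matrix, rose 8.45-fold and was the only one to pass a change of 2-fold. SLC7A11, GCLC, SRXN1, GCLM and HMOX1 rose between 1.33-fold and 1.79-fold. NFE2L2, KEAP1, TXNRD1 and NQO1 had fold changes between 0.98 and 1.21 that did not pass, and their normalized counts overlapped between the groups. The test was the quasi-likelihood test of edgeR, with Benjamini-Hochberg adjustment over all genes tested and an adjusted p of 0.05 as the threshold. Among all genes tested, 37.7% passed, 19.3% as higher and 18.4% as lower, and 6.65% were higher by at least 2-fold. The median log2 fold change of the 10 genes was 0.48, against 0.02 over all genes tested. In 6 of the 10 genes the normalized counts of the groups did not overlap, which was also true of 51.7% of all genes tested. Without vehicle replicate 3 the counts were again 6 higher and 0 lower. In bulk RNA, more transcript per cell and more cells carrying the transcript cannot be told apart.

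**Figure D1:**
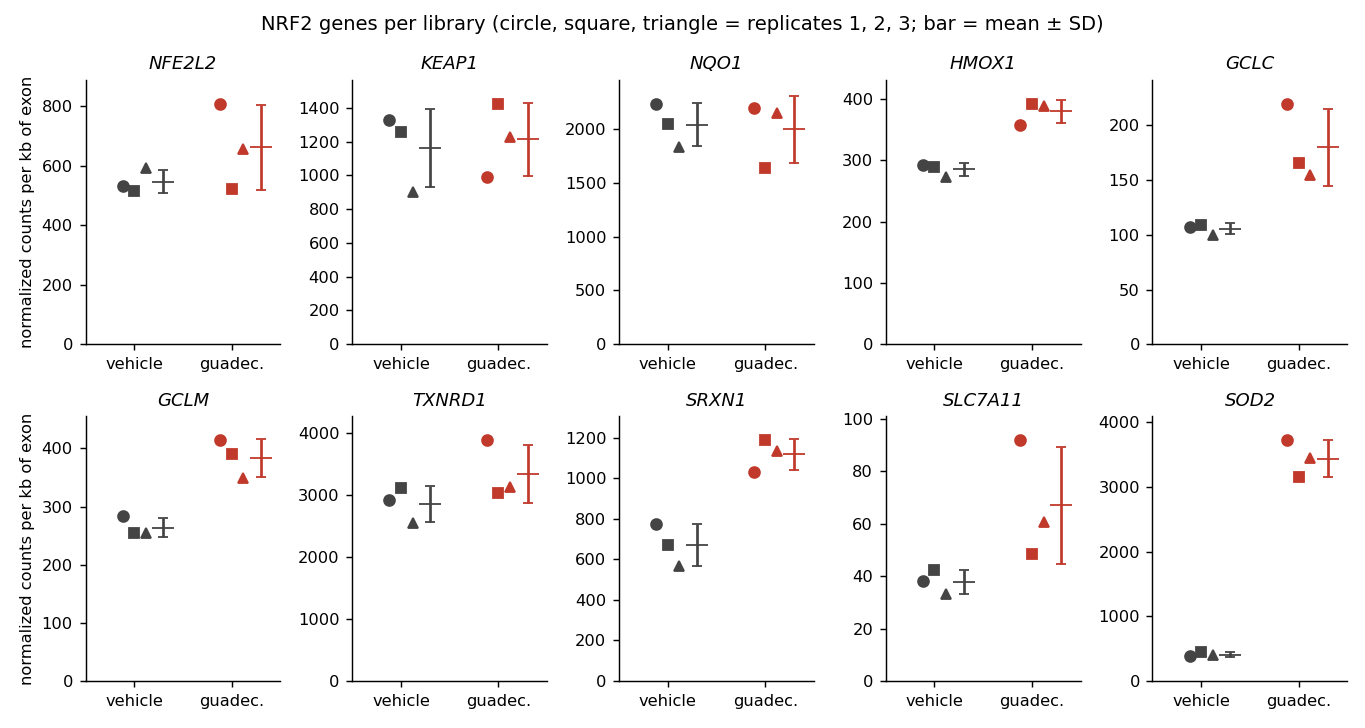
Level of each NRF2 gene in each library, in normalized counts per kb of exon on linear axes that start at 0, with vehicle in grey and guadecitabine in red. Symbols mark replicates 1 to 3 and bars the mean ± SD (n = 3), and the groups are apart in SOD2, SLC7A11, GCLC, SRXN1, GCLM and HMOX1 and overlap in the other four genes.

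SOD2 converts superoxide into hydrogen peroxide, and beside NRF2 it is a classical target of NF-kB. The gene lies on the minus strand of chromosome 6 (chr6:160100149-160114353, hg19). Normalized counts of SOD2, scaled to the mean library total, were 345, 405 and 359 in vehicle replicates 1, 2 and 3 and 3373, 2854 and 3130 in guadecitabine replicates 1, 2 and 3. The lowest guadecitabine library was far above the highest vehicle library. The log2 fold change was 3.08 (standard error 0.12, edgeR adjusted p = 3.65e-07), or 8.45-fold with a 95% interval from 6.98 to 10.2. This change ranked 267 from the top among the 13322 genes tested. Counts were taken over 907 bp of exon, so that most of the 6004 bp of exon that GENCODE places in this span was not counted.

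The first step of glutathione synthesis is catalysed by glutamate-cysteine ligase, a dimer of the catalytic subunit GCLC and the modifier subunit GCLM, and its cysteine is supplied by SLC7A11, the cystine/glutamate antiporter. All of them rose. GCLC (chr6:53362140-53409927, minus strand) had 410, 417 and 381 normalized counts in the vehicle replicates and 838, 630 and 590 in the guadecitabine replicates. GCLC thus had a log2 fold change of 0.77 (standard error 0.14, edgeR adjusted p = 0.00299), or 1.71-fold with a 95% interval from 1.36 to 2.15.

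GCLM (chr1:94352590-94375012, minus strand) had 870, 779 and 781 normalized counts in vehicle and 1271, 1197 and 1072 after guadecitabine. For GCLM the log2 fold change was 0.54 (standard error 0.11, edgeR adjusted p = 0.00454), or 1.46-fold with an interval from 1.23 to 1.73. The 2 subunits thus rose without overlap between the groups. The ratio of GCLM to GCLC in counts per kb was 2.63, 2.32 and 2.54 in vehicle and 1.88, 2.36 and 2.25 after guadecitabine, so that these ranges overlapped. The difference in log2 ratio was -0.21 (two-sided exact permutation test, p = 0.2, adjusted p = 0.267 over 4 ratios).

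SLC7A11 (chr4:139085248-139163503, minus strand) had the lowest level per kb of the 10 genes, with 359, 396 and 311 normalized counts in vehicle and 861, 455 and 568 after guadecitabine. Guadecitabine replicate 1 was the highest library and replicate 2 lay only a little above the highest vehicle library. The log2 fold change of SLC7A11 was 0.84 (standard error 0.22, edgeR adjusted p = 0.0141), or 1.79-fold with an interval from 1.28 to 2.50. Without guadecitabine replicate 1 it was 0.54 and still passed (adjusted p = 0.0185). The partner chain of the antiporter, SLC3A2, named here after its value was seen, rose by a log2 fold change of 0.64 (edgeR adjusted p = 0.014).

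SRXN1 (sulfiredoxin) repairs over-oxidized peroxiredoxins with the use of ATP. The gene (chr20:627268-634014, minus strand) had 2083, 1810 and 1532 normalized counts in vehicle and 2779, 3194 and 3053 after guadecitabine, without overlap. Its log2 fold change was 0.73 (standard error 0.13, edgeR adjusted p = 0.00227), or 1.66-fold with an interval from 1.36 to 2.04. Of the annotated exon bases of SRXN1, 91.0% are shared with another protein-coding annotation on the same strand, and the reads of the pair cannot be told apart.

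HMOX1, heme oxygenase 1, degrades heme to biliverdin, iron and carbon monoxide. The gene (chr22:35777060-35790207, plus strand) had 466, 461 and 434 normalized counts in vehicle and 570, 624 and 619 after guadecitabine. Both groups were tight and did not overlap. HMOX1 had a log2 fold change of 0.41 (standard error 0.10, edgeR adjusted p = 0.0114), or 1.33-fold with an interval from 1.14 to 1.56. Without guadecitabine replicate 3 the log2 fold change was 0.39 and the call was lost (adjusted p = 0.0572). For each of the 6 genes that rose, p was 0.1 in the exact two-sided permutation test, the smallest value that 3 against 3 libraries allow.

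**Figure D2:**
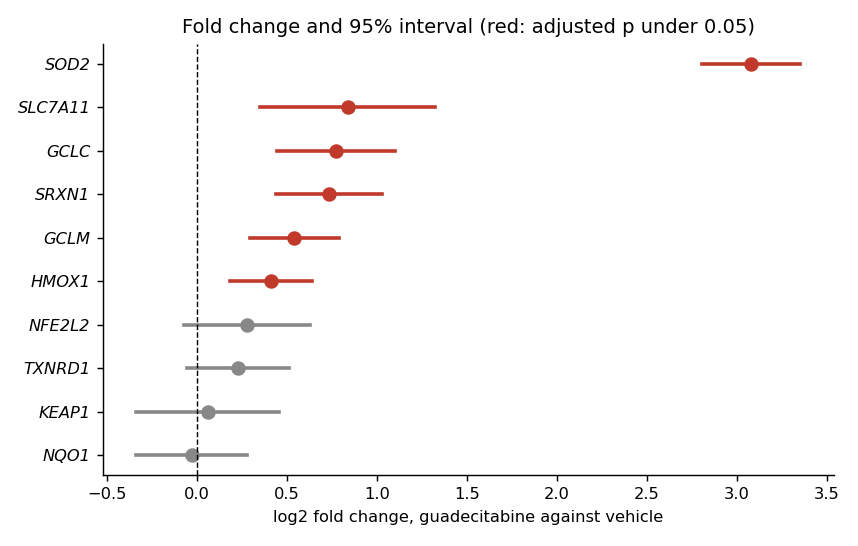
Log2 fold change of each NRF2 gene after guadecitabine (points) with its 95% interval (lines), and red for genes with an edgeR adjusted p under 0.05. The interval of SOD2 lies above those of the other nine genes, 5 further genes have intervals above 0, and the intervals of NFE2L2, TXNRD1, KEAP1 and NQO1 include 0.

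The regulators themselves did not pass the test. NFE2L2 (chr2:178095031-178129859, minus strand) had 1521, 1472 and 1689 normalized counts in vehicle and 2308, 1486 and 1874 after guadecitabine. Guadecitabine replicates 1 and 3 were above all vehicle libraries, and replicate 2 was among them. The log2 fold change of NFE2L2 was 0.28 (standard error 0.16, edgeR adjusted p = 0.191), with an interval of the fold from 0.95 to 1.55. Without guadecitabine replicate 2, the shallowest library, it was 0.42 and passed (edgeR adjusted p = 0.0352). Without guadecitabine replicate 1, the highest library, it was 0.11 and did not pass (adjusted p = 0.553).

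KEAP1 (chr19:10596796-10614054, minus strand) had 3448, 3262 and 2335 normalized counts in vehicle and 2573, 3690 and 3179 after guadecitabine, so that the groups overlapped widely. The log2 fold change of KEAP1 was 0.06 (standard error 0.18, edgeR adjusted p = 0.814), with an interval of the fold from 0.79 to 1.37. Its sign turned when vehicle replicate 3 or guadecitabine replicate 2 was left out. The ratio of NFE2L2 to KEAP1 per kb was 0.40, 0.41 and 0.66 in vehicle and 0.81, 0.37 and 0.54 after guadecitabine. The difference in log2 ratio was 0.19 (two-sided exact permutation test, p = 0.7, adjusted p = 0.7 over 4 ratios).

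TXNRD1 and NQO1 were the most abundant NRF2 targets of the vehicle cells. TXNRD1 (chr12:104609557-104744085, plus strand), the cytosolic thioredoxin reductase, had 11263, 12004 and 9818 normalized counts in vehicle and 14997, 11702 and 12069 after guadecitabine. Only guadecitabine replicate 1 stood well above the vehicle range. For TXNRD1 the log2 fold change was 0.23 (standard error 0.13, edgeR adjusted p = 0.184), with an interval of the fold from 0.96 to 1.43.

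NQO1 (chr16:69743304-69760571, minus strand), a quinone reductase, had 5395, 4941 and 4431 normalized counts in vehicle and 5307, 3956 and 5194 after guadecitabine. Guadecitabine replicates 1 and 3 lay in the upper part of the vehicle range and replicate 2 below it. NQO1 had a log2 fold change of -0.03 (standard error 0.14, edgeR adjusted p = 0.886), and the interval of the fold ran from 0.79 to 1.21. Its sign turned with library totals as the only scaling and without vehicle replicate 1 or guadecitabine replicate 2. An increase of NQO1 as large as the 1.66-fold value of SRXN1 lies outside this interval. An antisense annotation shares 20.8% of the exon bases of NQO1, and for SLC7A11, GCLC and NFE2L2 the share is 9.0%, 3.8% and 2.6%. Whether the counting used strand was not given in the sources used here.

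In levels per kb of exon, the order in the vehicle libraries was TXNRD1 with a mean of 2857 ± 288 normalized counts per kb (SD, n = 3), NQO1 with 2040 ± 200, KEAP1 with 1163 ± 230, SRXN1 with 673 ± 103 and NFE2L2 with 547 ± 39.9. SOD2 came sixth, with a mean level of 408 ± 34.5, followed by HMOX1 with 285 ± 11.0, GCLM with 264 ± 16.9, GCLC with 106 ± 4.96 and SLC7A11 with 37.9 ± 4.53. The neighbours SRXN1 and NFE2L2 overlapped in this order, and so did HMOX1 and GCLM. After guadecitabine SOD2 was first, with a mean level of 3439 ± 286 normalized counts per kb, and its range overlapped that of TXNRD1, with 3348 ± 468. SRXN1, at 1119 ± 78.4, then overlapped KEAP1, at 1214 ± 216. GCLC and SLC7A11 remained last in the order, with levels of 180 ± 34.9 and 67.0 ± 22.3. These levels depend on the counted exon length.

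Promoters were searched for 2 motifs in the 1000 bases before the deposited start of each transcript, on both strands of GRCh37, the assembly of hg19. The deposited start was that of a GENCODE transcript in TXNRD1, NQO1, GCLM and SLC7A11, and differed from the annotated starts in the other six genes. The core of the antioxidant response element was spelled TGACNNNGC, and the motif of AP-1, a factor whose site resembles it, was spelled TGANTCA. The sites below show the 3 matches to the element, and the AP-1 matches of the 2 genes SOD2 and SRXN1, with the motif in capitals and 10 bases on each side, 5′ to 3′ on the strand named.
NQO1, element, chr16:69760900-69760928, minus strand: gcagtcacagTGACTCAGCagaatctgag
GCLC, element, chr6:53410751-53410779, plus strand: aaatatgtgtTGACAGAGCaatgacctgt
TXNRD1, element, chr12:104609448-104609476, plus strand: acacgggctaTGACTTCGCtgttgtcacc
SRXN1, AP-1, chr20:634100-634126, minus strand: aaactcacccTGAGTCAgcccgcccgg
SOD2, AP-1, chr6:160115087-160115113, minus strand: gaactagtccTGACTCAgttaactgtg

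In NQO1 the 2 motifs overlap, since its element begins with an AP-1 match. The element was in 3 of the 10 windows (30.0%), against 32.0% of all 17100 windows, and the AP-1 motif in 6 of the 10 (60.0%), against 19.9%. Of the 3 genes with the element, GCLC rose while NQO1 and TXNRD1 did not pass the test. The AP-1 motif was present in 5 of the 6 genes that rose (SOD2, GCLC, GCLM, SRXN1 and HMOX1) and in NQO1. A match of letters is a description of the window and does not show binding. More distant elements and other spellings of the element were not searched. With the gc that follows it, the AP-1 match of SRXN1 (TGAGTCAgc) differs from TGACNNNGC only in a G for the C. The ratio of observed to expected CpG was over 0.6 in 6 of the 10 windows, against 46.7% of all windows and 53.9% of the windows of genes tested. It was 0.66 in SOD2, 0.73 in SRXN1, 0.97 in GCLM and 0.66 in GCLC, and 0.29 in HMOX1 and 0.27 in SLC7A11. Genes that rose therefore had windows rich and poor in CpG, and DNA methylation was not analysed here.

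**Figure D3:**
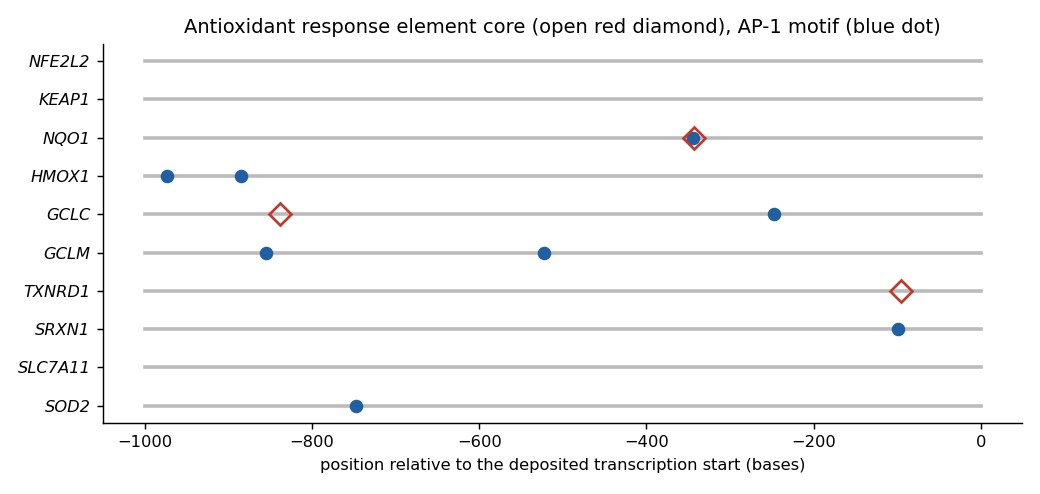
Position of the motif matches in the 1000 bases before the deposited start of each NRF2 gene, in bases from the start, with open red diamonds for the antioxidant response element core and blue dots for the AP-1 motif. The element is at 838 bases before the start in GCLC, 343 in NQO1 and 95 in TXNRD1, and 4 of the 10 lines (NFE2L2, KEAP1, TXNRD1 and SLC7A11) carry no AP-1 dot.

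Around the 10 genes, 8 lists of the NRF2 pathway held 97 tested genes, of which 23 rose, 25 fell and 49 did not pass the edgeR test. Their median log2 fold change was -0.03. Without vehicle replicate 3, 21 rose and 24 fell. Of all genes tested, 19.3% were higher and 18.4% lower. The lists differed in their counts, and the pathway genes named are the most significant of each list in each direction, unless stated otherwise.

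Among 14 tested partners and relatives of NRF2 and factors of its turnover, 7 rose and 1 fell, with a median log2 fold change of 0.35. With each library left out in turn, 5 to 7 rose and 0 to 2 fell, with 2 lower without vehicle replicate 2 and 0 lower without any 1 guadecitabine library. SQSTM1 (p62), an autophagy receptor that binds KEAP1, had 12115, 12838 and 10188 normalized counts in vehicle and 30345, 41090 and 34751 after guadecitabine. All guadecitabine libraries were above all vehicle libraries, with a 3.02-fold rise (95% interval 2.44 to 3.74, edgeR adjusted p = 3.69e-05). NFE2L1, a related factor that controls proteasome genes, rose by a log2 fold change of 0.65. Named after their values were seen, the small MAF genes MAFF, MAFG and MAFK, whose proteins pair with NRF2, rose by log2 fold changes of 1.14, 0.51 and 0.64, and BACH1, a repressor at the same elements, by 0.77. MAFK was close to the threshold (edgeR adjusted p = 0.0498) and lost its call without vehicle replicate 2 or 3 or guadecitabine replicate 2 or 3, at adjusted p values up to 0.145. MAFG lost it without guadecitabine replicate 3 (adjusted p = 0.0611). NFE2 fell by 2.40 on the log2 scale, with means of 35.0 and 6.54 normalized counts, and its log2 fold change was -1.42 without vehicle replicate 3, which had 69.4 normalized counts. Without any 1 guadecitabine library the call of NFE2 was lost (edgeR adjusted p = 0.0741 to 0.0971).

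Of 15 tested genes of glutathione synthesis and use, 6 rose and 3 fell. These counts were 4 and 2 without vehicle replicate 3, and 4 and 1 without vehicle replicate 2 or guadecitabine replicate 3. GLRX, a glutaredoxin, rose by a log2 fold change of 0.77 and GGT1, which cleaves extracellular glutathione, by 0.88. OPLAH, an oxoprolinase, fell by 0.80 on the log2 scale and GPX4, which reduces lipid peroxides, fell by 0.50. GPX4 lost its call without vehicle replicate 2 (edgeR adjusted p = 0.0598) or guadecitabine replicate 3 (adjusted p = 0.0509).

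Of 12 tested glutathione transferases, 2 rose and 3 fell, with a median log2 fold change of -0.27. Without vehicle replicate 2 these counts were 0 and 2, without guadecitabine replicate 3 they were 0 and 3, without vehicle replicate 1 they were 1 and 2, and without guadecitabine replicate 1 they were 3 and 2. GSTM2 fell by 1.65 and GSTM1 by 0.96, and reads of these near-identical paralogs can be split between them. GSTM3, whose product is a mu class transferase too, rose by a log2 fold change of 0.44, and lost its call without vehicle replicate 2 (edgeR adjusted p = 0.0558) or guadecitabine replicate 3 (adjusted p = 0.0889). GSTO1, an omega class transferase, rose by 0.42 at an adjusted p of 0.0495. Its call was lost without any library other than guadecitabine replicate 1, at edgeR adjusted p values from 0.0613 to 0.231.

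The thioredoxin and peroxiredoxin list had 1 gene higher and 6 lower of 15 tested, with a median log2 fold change of -0.26. Without vehicle replicate 1, vehicle replicate 2 or guadecitabine replicate 3, 1 was higher and 3 were lower, and without guadecitabine replicate 1, 2 were higher and 5 lower. The gene that rose was PRDX1, a peroxiredoxin kept active by sulfiredoxin, with 8449, 8120 and 7776 normalized counts in vehicle and 13464, 11240 and 12188 after guadecitabine (log2 fold change 0.60, standard error 0.10, edgeR adjusted p = 0.00173). PRDX2 fell by 0.79 on the log2 scale, and MSRA, a methionine sulfoxide reductase, fell by 1.04.

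Of 4 other genes that handle superoxide and peroxide, 1 rose and 2 fell. SOD1, the cytosolic superoxide dismutase, rose by a log2 fold change of 0.44, from 4647, 4918 and 3857 normalized counts in vehicle to 5788, 6264 and 6194 (edgeR adjusted p = 0.0144, and 0.0724 without guadecitabine replicate 3). SOD3, the secreted dismutase, had 389, 459 and 356 normalized counts in vehicle and 168, 193 and 146 after guadecitabine, and fell by 1.26 on the log2 scale (edgeR adjusted p = 0.000286). CAT, the catalase that removes hydrogen peroxide, fell by 1.12 on the log2 scale, from 1605, 1715 and 1629 normalized counts to 852, 632 and 789 (edgeR adjusted p = 0.000174). The 3 dismutases thus moved by different amounts and in both directions.

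The ratio of SOD2 to SOD1 per kb was 0.0791, 0.0876 and 0.0990 in vehicle and 0.620, 0.485 and 0.538 after guadecitabine. The log2 ratio differed by 2.63 without overlap (two-sided exact permutation test, p = 0.1, adjusted p = 0.2 over 4 ratios). SOD1 remained the more abundant of the pair per kb in all 6 libraries. The ratio of HMOX1 to the constitutive heme oxygenase HMOX2 was 0.223, 0.227 and 0.276 in vehicle and 0.197, 0.191 and 0.181 after guadecitabine. The groups did not overlap in this ratio, and the log2 ratio differed by -0.34 (two-sided exact permutation test, p = 0.1, adjusted p = 0.2 over 4 ratios). With 3 against 3 libraries the test cannot go below 0.1 for either ratio.

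**Figure D4:**
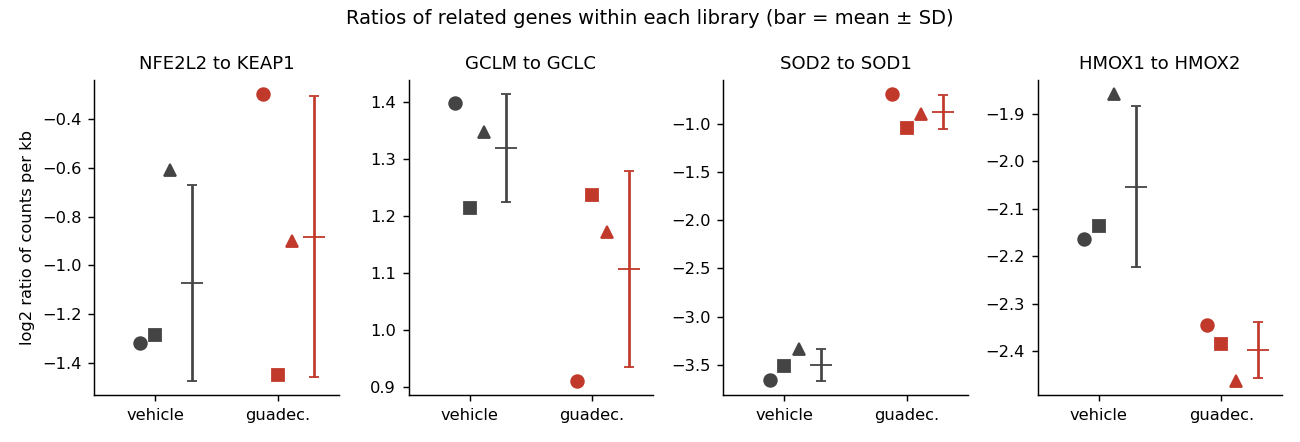
Log2 ratio of counts per kb of 4 gene pairs within each library, with vehicle in grey and guadecitabine in red. Symbols mark replicates 1 to 3 and bars the mean ± SD (n = 3), each panel has its own axis that does not start at 0, and the groups are apart for SOD2 to SOD1 and HMOX1 to HMOX2 and overlap for NFE2L2 to KEAP1 and GCLM to GCLC.

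Of 10 tested genes of heme and iron handling, 4 rose and 2 fell, with a median log2 fold change of 0.36. Without vehicle replicate 3 these counts were 4 and 3, and without vehicle replicate 1 or 2 they were 4 and 1. FTL, the light chain of ferritin, which stores iron, rose by a log2 fold change of 1.09, from a mean of 54404 ± 1646 normalized counts in vehicle to 115881 ± 7586 (SD, n = 3). FTL has pseudogenes that can share its reads. HMOX2 rose by a log2 fold change of 0.75. SLC40A1 (ferroportin), the exporter of iron, had 300, 319 and 285 normalized counts in vehicle and 97.9, 75.2 and 73.6 after guadecitabine, and fell by 1.86 on the log2 scale (edgeR adjusted p = 4.16e-05). ABCB6, a porphyrin transporter, fell by 0.54, and lost its call without vehicle replicate 1 (edgeR adjusted p = 0.0645) or 2 (adjusted p = 0.0608).

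None of the 6 tested genes of NADPH supply rose and 3 fell, with a median log2 fold change of -0.55. IDH1, the cytosolic isocitrate dehydrogenase, had 1174, 1304 and 1272 normalized counts in vehicle and 429, 268 and 403 after guadecitabine, and fell by 1.75 on the log2 scale (edgeR adjusted p = 6.08e-05). TKT, the transketolase of the pentose phosphate pathway, fell by 1.07. Of 21 tested detoxifying enzymes and exporters, 2 rose and 5 fell. With each library left out in turn, 2 to 3 rose and 4 to 5 fell, with 3 higher without vehicle replicate 3, guadecitabine replicate 1 or guadecitabine replicate 2. The aldo-keto reductases AKR1B1 and AKR1C1 rose by log2 fold changes of 0.74 and 0.65. AKR1C3 fell by 1.23 and EPHX1, a microsomal epoxide hydrolase, fell by 1.07. The AKR1C genes are close paralogs that can share reads, so that the value of each is uncertain.

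**Figure D5:**
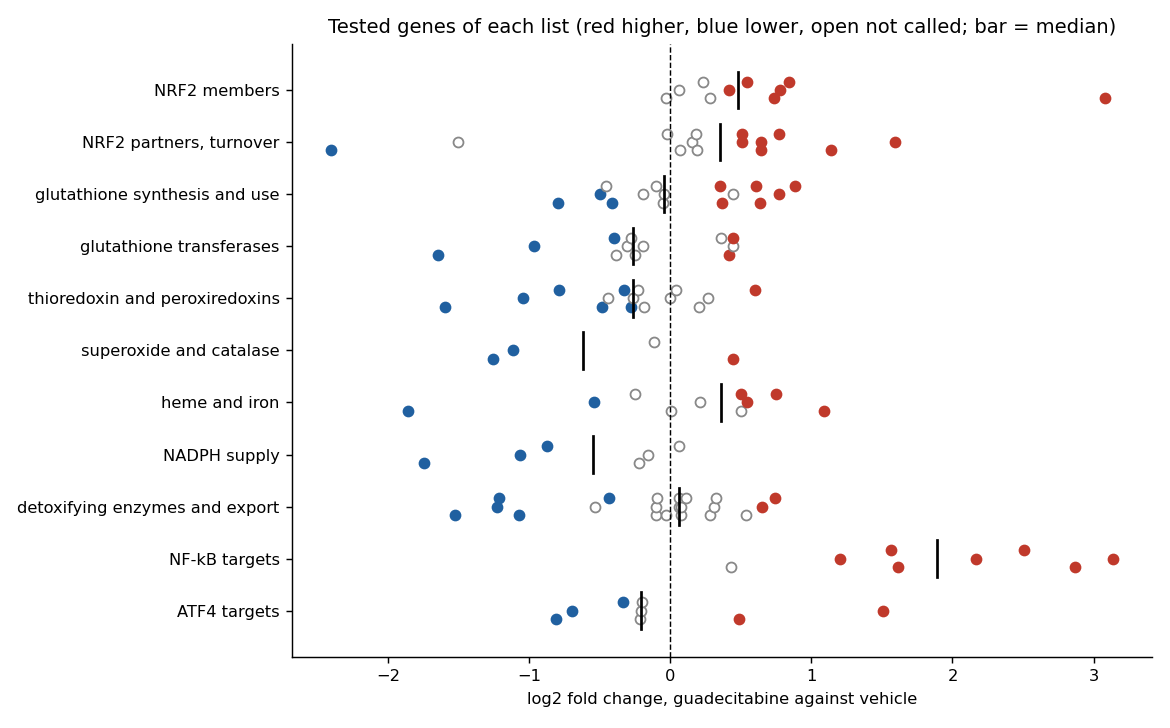
Log2 fold change after guadecitabine of each tested gene in the 10 NRF2 genes, the 8 pathway lists and the lists of NF-kB and ATF4 targets, with red for higher, blue for lower and open symbols for genes that did not pass the edgeR test. Black bars mark each list's median, from -0.62 for superoxide and catalase genes without SOD2 to 1.89 for NF-kB targets, and SOD2 is the single red point near 3 among the NRF2 genes.

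Some NRF2 genes are also targets of other factors, SOD2 of NF-kB and SLC7A11 of ATF4, and short lists of their targets were set beside them. Both lists were chosen with earlier results of these data known. Of 8 NF-kB targets, 7 rose and 0 fell, all 7 by at least 2-fold, and the median log2 fold change was 1.89. Among all genes tested, 19.3% were higher, 18.4% lower and 6.65% higher by at least 2-fold. ICAM1, an adhesion molecule, rose by a log2 fold change of 3.14, TNFAIP3, an inhibitor of NF-kB, by 2.87, and NFKBIA, the IkB-alpha inhibitor, by 1.20 (edgeR adjusted p of 3.45e-07, 5.73e-06 and 2.76e-05). BIRC3, TRAF1, NFKB2 and RELB rose by log2 fold changes between 1.56 and 2.51. CCL2 had a log2 fold change of 0.43 that did not pass. Over all 8 targets the log2 fold changes ran from 0.43 to 3.14. The lower end was CCL2, and the 7 targets that rose ran from 1.20 to 3.14. SOD2, at 3.08, lay within the range of those 7, while SLC7A11, GCLC, SRXN1, GCLM and HMOX1, between 0.41 and 0.84, lay below it.

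Of 8 ATF4 targets, 2 rose and 3 fell, and 1 and 2 did so without any 1 vehicle library or without guadecitabine replicate 3. Without guadecitabine replicate 2, 1 rose and 3 fell. CEBPB rose by a log2 fold change of 1.51, PSAT1, an enzyme of serine synthesis, fell by 0.70 on the log2 scale, and VLDLR fell by 0.81. SLC7A11, with a log2 fold change of 0.84, was thus set beside a list with a median of -0.21. The genes of these 2 lists were named after their values were seen. The part of NF-kB or ATF4 in the values of SOD2 and SLC7A11 was not tested.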

How the data were processed

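RNA sequencing libraries of MDA-MB-231 cells (3 vehicle, 3 guadecitabine) were grouped by their labels. Per the labels, the authors prepared libraries with the TruSeq RNA kit. Reads were aligned to hg19 with STAR (2.3.1z in the submitters' processing notes), and exon reads per RefSeq transcript were counted with iRNA-seq. The authors deposited these raw counts and the counted exon length. Their regularized log values and their DESeq2 comparison were deposited in the same table and not used here. The NRF2 genes and all gene lists were chosen with earlier results of these data known.

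The test was that of edgeR 4.0.16 (R 4.3.3, TMM, filterByExpr with a minimum count of 10, quasi-likelihood test, Benjamini-Hochberg adjustment over 13322 genes, threshold 0.05). Standard errors were derived from the F statistic. Normalized counts refer to a library of 17911210 counts, the mean of the 6 totals. In counts simulated from these 6 libraries 200 genes were changed, and 13148 genes were tested. There edgeR recovered 71 of 100 genes changed 2-fold and 86 of 100 changed 4-fold, with 13 false calls. In the data 37.7% of genes passed, a far larger share than was changed in the simulation, so these rates need not hold for the data. Exact permutation tests were two-sided. P-values measure the spread between libraries, which the methods describe as independent experiments. Promoter windows and exon overlaps were read with Python 3.11.15 from GRCh37 and GENCODE release 44. Besides the 10 NRF2 genes, the text names up to 2 genes called higher and 2 called lower in each pathway list, those with the smallest adjusted p and a mean of at least 10 normalized counts. MAFF, MAFG, MAFK, BACH1, SLC3A2 and the NF-kB and ATF4 targets were named outside this rule, after their values were seen. Alternatives were a replicate block, DESeq2 1.42.0, its size factors, library totals, no filter, at least 10 counts in every library, a 2-fold threshold and each library left out. Reads are not independent molecules. Some genes of the lists are not reported here by name.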

Additional observations from a re-analysis of the deposited data

How the results depend on the processing

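Among the NRF2 genes, SOD2, SLC7A11, GCLC, SRXN1 and GCLM kept their direction and their call under every alternative run other than the 2-fold threshold, which SLC7A11, GCLC, SRXN1 and GCLM did not pass. A threshold of 2-fold left 1 NRF2 gene higher (SOD2), 3 pathway genes higher and 13 lower, and 886 of all genes higher and 747 lower. Over the fits without 1 library, the genes called numbered 1706 to 3002 higher and 1629 to 2575 lower over all genes, with the lowest counts without guadecitabine replicate 3. In these fits the NRF2 genes called higher numbered 5 to 7, and the log2 fold change was 0.38 to 0.46 for HMOX1, 0.11 to 0.42 for NFE2L2, -0.10 to 0.19 for KEAP1 and -0.10 to 0.10 for NQO1, while the difference in log2 ratio of NFE2L2 to KEAP1 was -0.11 to 0.47. HMOX1 lost its call without guadecitabine replicate 3 and NFE2L2 gained one without guadecitabine replicate 2, and the cause was not tested. KEAP1 reversed at -0.10 without vehicle replicate 3 and -0.07 without guadecitabine replicate 2. NQO1 reversed at 0.0098 with library totals only, 0.04 without vehicle replicate 1 and 0.10 without guadecitabine replicate 2, and the ratio of NFE2L2 to KEAP1 at -0.11 without guadecitabine replicate 1. The median log2 fold change of all genes was 0.02, 0.01 with the size factors of DESeq2 and 0.05 with library totals.

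Within-group variation of libraries with the same replicate number was nearly uncorrelated across genes (-0.0499, 0.0492 and -0.0366). Pairs with different numbers had correlations from -0.0613 to 0.0629. With 3 libraries per group and vehicle replicate 3 standing apart, these values cannot decide whether same-numbered libraries came from the same experiment. With the replicate block, 6 NRF2 genes were higher and 0 lower, 23 pathway genes were higher and 23 lower, and 2424 of all genes were higher and 2230 lower. Without a filter on low counts the calls of GSTO1 (adjusted p = 0.0864 from edgeR), NFE2 (adjusted p = 0.0507) and MAFK (adjusted p = 0.0707) were lost, and with the size factors of DESeq2 those of GSTO1 (adjusted p = 0.0588) and MAFK (adjusted p = 0.0546). Among the genes named, the block ended only the call of GSTO1 (adjusted p = 0.0758 from edgeR). The 95% intervals of NFE2L2 and TXNRD1 run from 0.95 to 1.55 and from 0.96 to 1.43 in fold.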
